A study of Caenorhabditis elegans with 12 samples.

Results

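The genes described here are 9 *C. elegans* genes that encode enzymes of the mitochondrial citric acid cycle: *cts-1*, *aco-2*, *idha-1*, *idhb-1*, *idhg-1*, *ogdh-1*, *sucl-1*, *fum-1* and *mdh-2*. They were chosen by their WormBase symbols and are 9 of the 19997 genes in the deposited tables. Each symbol matched 1 line of the tables, and all 9 genes passed the filter on low counts in every comparison. Messenger RNA was measured by mRNA-seq in 12 samples of whole hermaphrodites that fall into 5 groups. The *daf-2(e1370)* animals on day 1 of adulthood (3 samples) also carried *eri-1(mg366)*, an allele that enhances RNA interference, and their labels name control RNAi. The *glp-4(bn2)* animals were collected on day 1, day 3 and day 7 (2 samples each) and carried no *eri-1* allele. The reference animals called WT (3 samples, day 1) were not fully wild-type, because they carried *eri-1(mg366)*, and their labels name no RNAi. The study compared the *glp-4* ages to follow normal aging of the soma, and *daf-2* with WT animals to follow reduced insulin/IGF-like signaling.

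Each sample pooled at least 80 worms. As adults the worms were kept at 20 °C, and FUDR (50 µM) was added to stop the production of progeny. Larvae of all groups grew at 15 °C by the labels, while the methods of the study give 25 °C for *glp-4* larvae, a temperature at which this allele prevents the germline from proliferating. The methods describe collection in triplicate, and 2 samples per *glp-4* age were analysed here. No label says that the samples of a group came from separate cultures, so the p-values measure only the spread between these samples, which may be technical.

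The citric acid cycle oxidizes the acetyl group of acetyl-CoA to carbon dioxide in the mitochondrial matrix and passes the electrons to the respiratory chain as NADH and reduced flavin. Its intermediates are also drawn off for the synthesis of glucose, amino acids and lipids and are replaced by side reactions. In *C. elegans* the glyoxylate cycle, which bypasses the steps that release carbon dioxide, shares several of these enzymes and lets the animal make sugar from stored fat.

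The 9 genes cover 7 steps of the cycle. *cts-1* encodes citrate synthase, which joins acetyl-CoA to oxaloacetate, and *aco-2* the mitochondrial aconitase, which turns citrate into isocitrate. *idha-1*, *idhb-1* and *idhg-1* encode the alpha, beta and gamma subunits of the NAD-dependent isocitrate dehydrogenase, of which alpha is the catalytic one. *ogdh-1* encodes the first component (E1) of the 2-oxoglutarate dehydrogenase complex, and *sucl-1* an alpha subunit of succinyl-CoA ligase. *fum-1* encodes fumarase, and *mdh-2* the mitochondrial malate dehydrogenase, which restores oxaloacetate. The subunits of succinate dehydrogenase and the remaining subunits of the enzymes above are treated with the related genes further on.

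In the WBcel235 assembly, with Ensembl release 115 annotation, 5 of the 9 genes lie on chromosome III. These are *cts-1* (WBGene00000833, III:10214771-10216635), *aco-2* (WBGene00000041, III:7973717-7977355), *idhg-1* (WBGene00009440, III:4568797-4571865), *fum-1* (WBGene00001503, III:7465605-7467640) and *mdh-2* (WBGene00003162, III:6606544-6608106). On chromosome X lie *idhb-1* (WBGene00007993, X:14170730-14174063) and *sucl-1* (WBGene00007350, X:14754026-14756081). The other two are *idha-1* (WBGene00009664, I:8606549-8608631) and *ogdh-1* (WBGene00020679, IV:4696979-4704011). All are protein-coding. By gene start and end, *cts-1*, *aco-2*, *idha-1*, *idhg-1*, *sucl-1* and *fum-1* overlap an annotated gene on the opposite strand. The library kit (TruSeq RNA v2) does not mark strand, so reads from any exon stretch shared by both genes could not be told apart. Whether their exons overlap was not examined. *idhg-1* and *fum-1* also overlap a noncoding gene on their own strand.

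Total counts per sample ranged from 4538353 to 22484551 and were lowest on day 7. Beside the members, markers of whole tissues differed widely between the groups. Summed over 12 germline markers, the level was 49.5 to 58.3 TMM-normalized CPM (counts per 1000000 counts of the sample, with each sample's total adjusted by a TMM factor) in *glp-4* animals on day 1, 205 to 222 on day 3 and 472 to 482 on day 7, against 6474 to 7125 in *daf-2* and 8493 to 8665 in WT animals, so germline transcripts were scarce in the *glp-4* samples. Summed over 5 body wall muscle markers, it was 17656 to 20683 CPM in *glp-4* animals on day 1, 3532 to 3925 on day 3 and 1254 to 1389 on day 7, against 4012 to 4727 in *daf-2* and 4088 to 4327 in WT animals. The *daf-2(e1370)* allele changes an amino acid of the receptor, so the level of its transcript is no check of that label. In samples of whole animals, fewer cells of a type and less RNA per cell cannot be told apart.

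Per transcript length, all 9 genes were among the more abundant transcripts of every group, between the 83.6 and 98.8 percentiles of genes ranked by TPM (the reads of a gene relative to its transcript length, scaled to the same total in every sample). In WT animals *mdh-2* stood first with 657 ± 26.6 TPM, followed by *cts-1* with 560 ± 9.32 and *aco-2* with 425 ± 13.5 TPM (SD, n = 3). The next genes came in pairs that did not differ beyond their spread. *fum-1* had 208 ± 2.46 and *idha-1* 201 ± 9.56 TPM, and *ogdh-1* had 152 ± 5.37 and *idhg-1* 147 ± 2.60 TPM. *sucl-1* had 128 ± 1.503 TPM, and *idhb-1* was lowest at 71.6 ± 2.30 TPM. The order differed in *glp-4* animals on day 7, where *aco-2* led with 287 ± 5.36 TPM and *cts-1* followed with 258 ± 23.4 TPM (SD, n = 2). There *ogdh-1* stood at 138 ± 0.882 and *mdh-2* at 123 ± 0.140 TPM, and *idhg-1* was lowest at 35.9 ± 1.45 TPM.

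**Figure D1:**
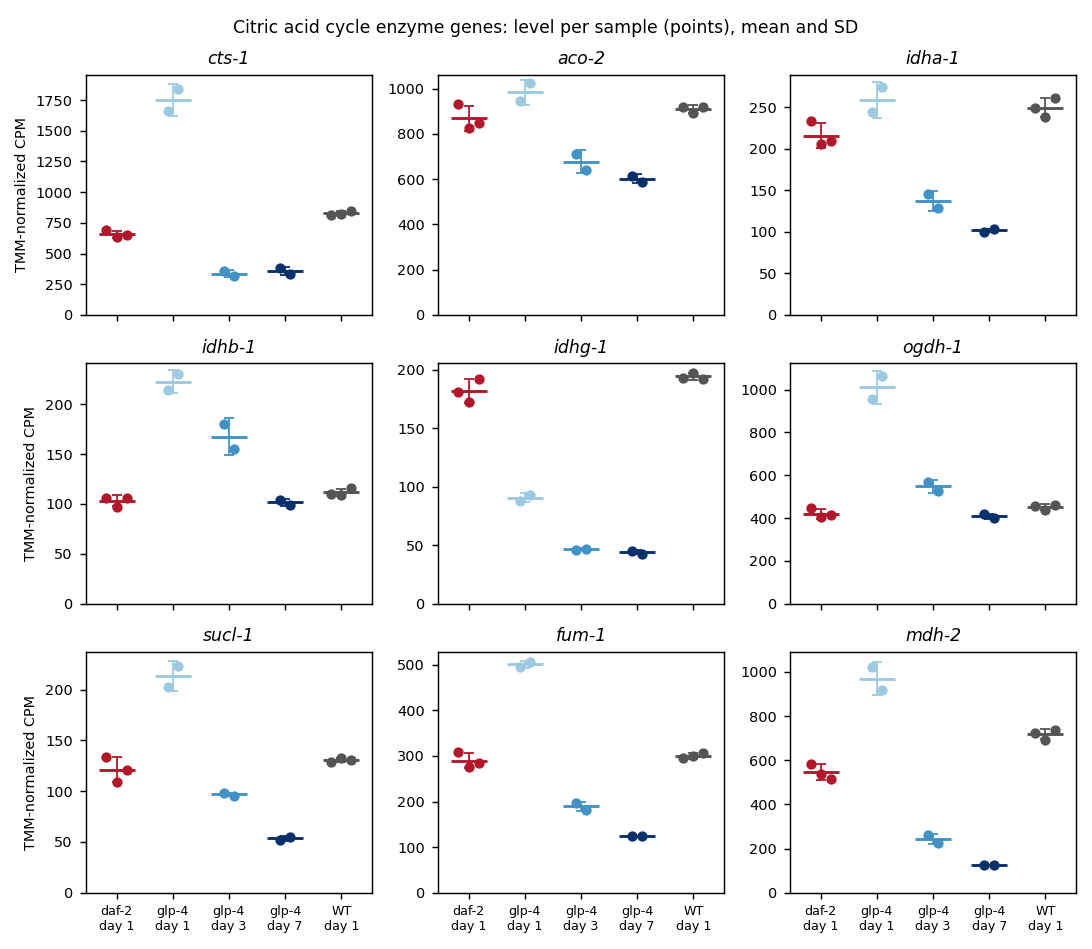
Level of each of the 9 genes in every sample, as TMM-normalized CPM on a linear axis that starts at 0, with the mean (line) and SD (bar) of each group (n = 3 for *daf-2* and WT, n = 2 for each *glp-4* age). In *glp-4* animals every gene was lower in both samples of day 3 and of day 7 than in both samples of day 1, and *cts-1* on day 1 had 1660.2 and 1842 CPM in *glp-4* animals, against 815 to 847 CPM in WT animals.

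The sum over the 9 genes was 2884 ± 117 TPM in *glp-4* animals on day 1, 1160 ± 109 on day 3 and 1144 ± 29.4 on day 7 (SD, n = 2). It was 2422 ± 26.0 TPM in *daf-2* animals, against 2548 ± 66.0 TPM in WT animals (SD, n = 3), and the samples of these 2 groups did not overlap. This lower sum came from *mdh-2* (mean 553 TPM in *daf-2*, 657 in WT animals), *cts-1* (492 and 560) and *idha-1* (192 and 200.5). The mean TPM of each other gene was higher in *daf-2* animals. As a share of all counts, the 9 genes took 0.481% and 0.488% in the *glp-4* samples of day 1, 0.208% and 0.203% on day 3 and 0.236% and 0.225% on day 7.

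With age, transcripts of every one of the 9 genes declined in *glp-4* animals. On day 3 against day 1, 9 of 9 were lower and 0 were higher by edgeR's quasi-likelihood test (Benjamini-Hochberg adjusted p under 0.05), where 27.5% of all 13222 tested genes were lower and 26.6% were higher. On day 7 against day 1 it was again 9 of 9 lower and 0 higher, where 31.3% of all tested genes were lower and 30.6% were higher. The median log2 fold change of the 9 genes was -0.93 on day 3 and -1.32 on day 7, beside medians over all tested genes of 0.00 and 0.02. Both comparisons use the same day 1 samples.

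The decline was steepest at the 2 ends of the cycle that meet at oxaloacetate. *cts-1*, citrate synthase, had 1660.2 and 1842 CPM on day 1, 359 and 315 on day 3, and 382 and 336 on day 7. The day 1 samples lay far above all others, and those of day 3 and day 7 overlapped. Its log2 fold change was -2.35 ± 0.12 (SE) on day 3 (5.11-fold lower, adjusted p = 7.0e-10, edgeR) and -2.25 ± 0.12 on day 7 (4.77-fold lower, adjusted p = 7.4e-10).

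*mdh-2*, malate dehydrogenase, had 1021 and 917 CPM on day 1, 259 and 227 on day 3, and 127 and 126 on day 7. Here the 3 ages were separate, with a further step down after day 3. The log2 fold change was -1.97 ± 0.11 on day 3 and -2.91 ± 0.11 on day 7, which is 7.49-fold lower (adjusted p = 4.5e-11, edgeR) and the largest decline among the 9 genes.

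*sucl-1* and *fum-1*, which act in the stretch from succinyl-CoA to malate, declined stepwise as well. *sucl-1* had 203 and 224 CPM on day 1, 97.7 and 95.6 on day 3, and 52.0 and 55.1 on day 7. *fum-1* had 496 and 506 CPM on day 1, 197 and 182 on day 3, and 125 and 125 on day 7. Neither gene's samples overlapped between ages. The second step of *fum-1* depended on the scaling. On day 7 against day 3 it was -0.09 with library totals alone (adjusted p = 0.45, edgeR). With limma on log2(TPM + 1) it was -0.24 (adjusted p = 0.088). On day 7 against day 1 the log2 fold change was -1.96 ± 0.11 for *sucl-1* (adjusted p = 2.2e-09) and -1.97 ± 0.10 for *fum-1* (adjusted p = 7.5e-10, both edgeR).

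The 3 subunits of isocitrate dehydrogenase followed different courses. *idha-1*, the catalytic alpha subunit, had 243 and 274 CPM on day 1, 145 and 128 on day 3, and 99.9 and 103 on day 7. *idhb-1*, the beta subunit, had 214 and 231 CPM on day 1, 180.4 and 155 on day 3, and 104 and 99.2 on day 7, so with TMM most of its decline came after day 3. That timing depended on the scaling. With limma on log2(TPM + 1) its log2 fold change was -0.30 on day 3 against day 1 and -0.34 on day 7 against day 3. With library totals alone the value on day 7 against day 3 was -0.21. *idhg-1*, the gamma subunit, had 87.9 and 93.2 CPM on day 1, 46.3 and 47.2 on day 3, and 45.2 and 42.8 on day 7, so most of its decline came before day 3.

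By day 7 all 3 subunits were lower, with log2 fold changes against day 1 of -1.32 ± 0.11 for *idha-1*, -1.10 ± 0.11 for *idhb-1* and -1.01 ± 0.12 for *idhg-1* (adjusted p at most 3.5e-06, edgeR). On day 3 the value for *idhb-1*, -0.38 ± 0.11 (adjusted p = 0.0079), was the smallest of the 9 genes. That call rested on 1 library: without replicate 2 of day 3 it was -0.29 with an adjusted p of 0.10, and it also missed the threshold with limma on log2(TPM + 1) (adjusted p = 0.079).

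*ogdh-1*, the E1 component of 2-oxoglutarate dehydrogenase, had 956 and 1065 CPM on day 1, 571 and 528 on day 3, and 417 and 401 on day 7 (log2 fold change on day 7 -1.27 ± 0.10, adjusted p = 1.0e-07, edgeR). *aco-2*, mitochondrial aconitase, declined least by day 7. It had 946 and 1024 CPM on day 1, 713 and 641 on day 3, and 615 and 589 on day 7. Its log2 fold change was -0.51 ± 0.10 on day 3 (adjusted p = 7.1e-04) and -0.68 ± 0.10 on day 7 (adjusted p = 5.5e-05, both edgeR). The day 7 call for *aco-2* depended on the scaling: with library totals alone it was -0.14 (adjusted p = 0.19), and with limma on log2(TPM + 1) it was -0.20 (adjusted p = 0.13).

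Between day 3 and day 7 the decline went on for 6 of the 9 genes and 0 were higher by edgeR, where 18.4% of all tested genes were lower and 14.2% were higher. The 6 genes were *idha-1*, *idhb-1*, *ogdh-1*, *sucl-1*, *fum-1* and *mdh-2*, with log2 fold changes from -0.94 ± 0.11 (*mdh-2*, adjusted p = 1.6e-05) to -0.42 ± 0.10 (*ogdh-1*, adjusted p = 0.0068). *cts-1* (0.10 ± 0.11), *aco-2* (-0.16 ± 0.10) and *idhg-1* (-0.08 ± 0.12) did not pass the test. *idha-1* (-0.42 ± 0.11, adjusted p = 0.011) lost its call without replicate 1 of day 3 (0.10), without replicate 1 of day 7 (0.088) or without replicate 2 of day 7 (0.059), and *ogdh-1* lost it without replicate 1 of day 3 (0.058) or replicate 2 of day 7 (0.085).

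This later step was sensitive to scaling, since library totals alone moved the median log2 fold change of all tested genes by day 7 against day 3 to 0.51 (0.30 with limma on TPM), where TMM left it at 0.01. With library totals alone *sucl-1* and *mdh-2* were the only members still called lower, and *cts-1* (0.61), *aco-2* (0.35) and *idhg-1* (0.42) were called higher, the first of them above and the other two below that shifted median. Scaling shifted the comparison of day 7 with day 1 in the same way, to a median of 0.56 with library totals alone, and all 9 genes still had values below 0 there.

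**Figure D2:**
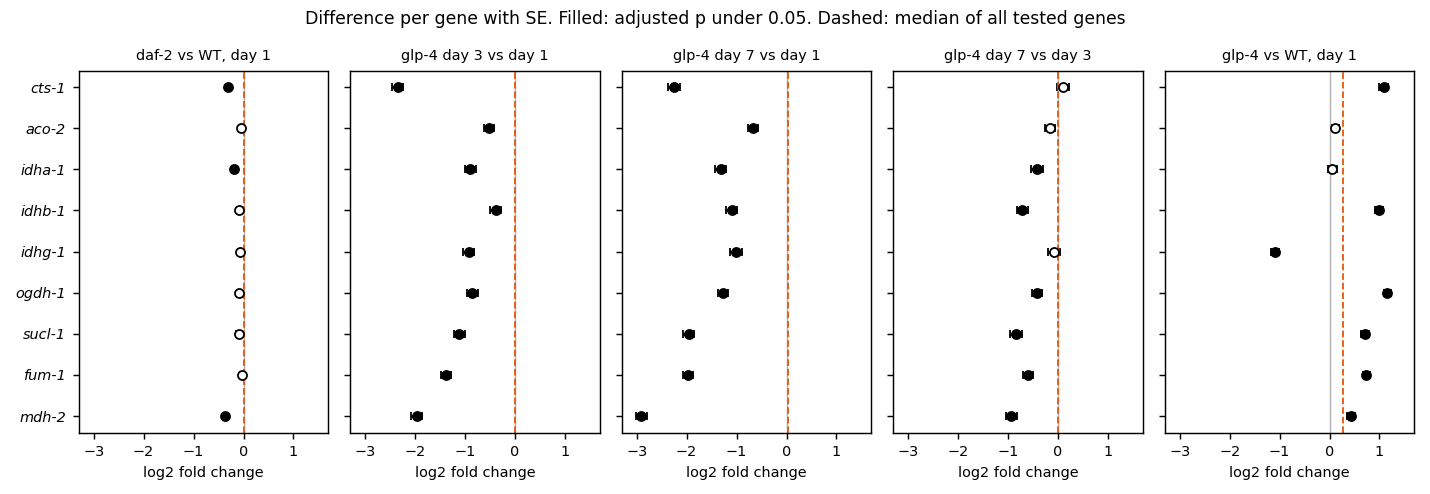
Log2 fold change with its SE for each of the 9 genes (rows) in the 5 comparisons (panels), from edgeR's quasi-likelihood test. Filled points had an adjusted p under 0.05, open points did not, and the dashed line is the median over all tested genes. All 9 points are filled and left of the line in the comparisons of day 3 and day 7 with day 1. In the *daf-2* panel the small negative values of 6 open points turned positive with library totals alone, and in the *glp-4* against WT panel those of *aco-2* and *idha-1* turned negative.

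Because the genes declined by unequal amounts, the make-up of the transcripts changed with age. These shares and ratios are taken within a sample and do not depend on the scaling between samples. Of the TPM summed over the 9 genes, *mdh-2* took 23.4% on day 1, 15.9% on day 3 and 10.8% on day 7. *aco-2* took 11.5%, 21.6% and 25.1% at the same ages. *cts-1* took 31.1% on day 1, 16.2% on day 3 and 22.5% on day 7. The ratio of *mdh-2* to *aco-2* in TPM was 2.24 and 1.85 in the day 1 samples, 0.741 and 0.733 on day 3, and 0.423 and 0.434 on day 7, with no overlap between ages.

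**Figure D3:**
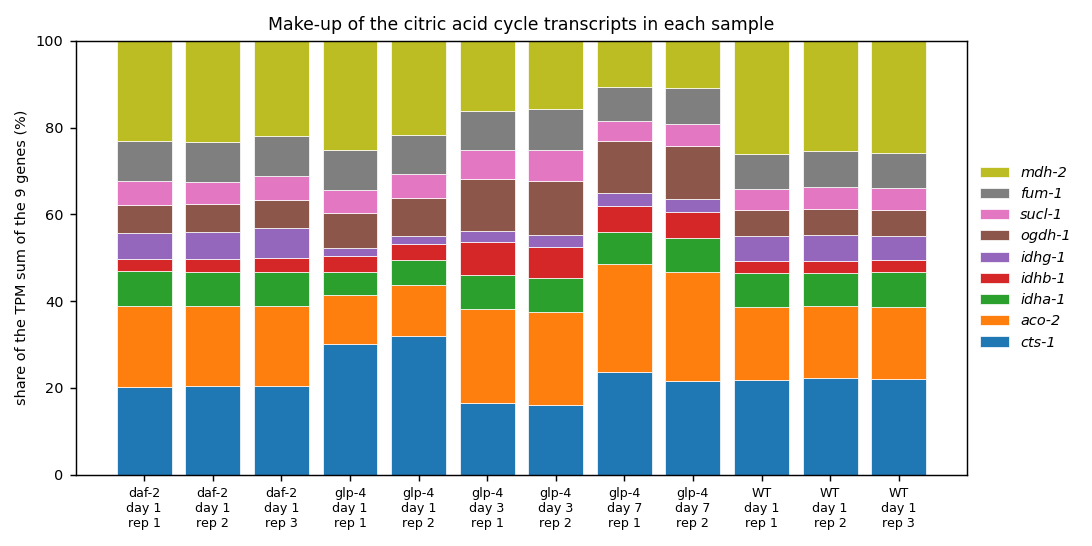
Share of each gene in the TPM summed over the 9 genes, in percent, for each of the 12 samples (bars, which add up to 100%). The share of *mdh-2* (top) was 10.8% on average in *glp-4* animals on day 7, against 23.4% on day 1, and that of *aco-2* (orange) was 25.1% against 11.5%. The share of *mdh-2* was 22.9% in *daf-2* animals, against 25.8% in WT animals.

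Levels of other tissue markers moved in the same ages. From day 1, all 5 body wall muscle markers were lower on day 3 and on day 7, and 4 of 5 hypodermis markers were lower at both ages, with their summed level at 3215 to 4102 CPM on day 1, 344 to 351 on day 3 and 104 to 109 on day 7. Of the 5 intestine markers, 3 were lower and 1 was higher on day 3, and 4 were lower and 0 were higher on day 7, with sums of 3804 to 3879, 813 to 901 and 521 to 568 CPM. Their median log2 fold change was -0.59 on day 3 and -1.12 on day 7, a smaller fall than in the sums. Of the neuron markers, 2 of 5 were higher and 0 were lower at both ages, beside 26.6% and 30.6% of all tested genes called higher. Their sums were 398 to 399 CPM on day 1, 639 to 643 on day 3 and 707 to 724 on day 7. The median log2 fold change of these 5 markers was 0.19 on day 3 and -0.02 on day 7, so the list did not rise as a whole. All 12 germline markers were higher on day 3 and on day 7, as were the 2 of 4 sperm markers that passed the filter on low counts. The part of these changes in the decline of the cycle genes was not tested.

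In *daf-2* animals the cycle genes differed little from WT animals. By the labels, genotype and the named control RNAi differ together in this comparison and cannot be told apart. By edgeR, 3 of 9 were lower and 0 were higher in *daf-2* animals, where 22.5% of all 13528 tested genes were lower and 25.5% were higher, so that the count of lower genes was close to the background and no result about the group. The median log2 fold change of the 9 genes was -0.09, beside 0.00 over all tested genes.

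The 3 lower genes were *cts-1*, *mdh-2* and *idha-1*. *cts-1* had 689, 636 and 648 CPM in *daf-2* animals, against 815, 819.9 and 847 CPM in WT animals (log2 fold change -0.31 ± 0.04, 1.24-fold lower, adjusted p = 8.1e-05, edgeR). *mdh-2* had 585, 538 and 517 CPM in *daf-2* animals, against 725, 692 and 735 CPM in WT animals (log2 fold change -0.37 ± 0.05, 1.29-fold lower, adjusted p = 7.9e-05, edgeR). Neither gene's samples overlapped between the genotypes.

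For *idha-1*, levels were 233, 205 and 209 CPM in *daf-2* animals, against 248, 238 and 261 CPM in WT animals. Its log2 fold change of -0.19 ± 0.05 (adjusted p = 0.0062, edgeR) was -0.07 with library totals alone (adjusted p = 0.21) and -0.06 with limma on log2(TPM + 1) (adjusted p = 0.30). Library totals and limma on TPM moved the median of all tested genes to 0.13 and 0.12, and with them 72% of called genes were higher in *daf-2* animals, where TMM gave 53.2%.

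The other 6 genes did not pass the test. *aco-2* had 933, 827 and 847 CPM in *daf-2* animals, against 920.1, 891 and 919 CPM in WT animals (log2 fold change -0.05 ± 0.04, adjusted p = 0.40, edgeR). The values of *idhb-1*, *idhg-1*, *ogdh-1*, *sucl-1* and *fum-1* lay between -0.10 and -0.03, and all 6 turned positive, up to 0.09, with library totals alone or limma on TPM. Without replicate 1 of *daf-2*, *sucl-1* (adjusted p = 0.029) and *ogdh-1* (0.045) passed as well, and without replicate 3 *idhg-1* did (0.042).

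Within a sample, the ratio of *cts-1* to *aco-2* in TPM was 1.07, 1.11 and 1.11 in *daf-2* animals, against 1.29, 1.33 and 1.34 in WT animals. The ratio of *mdh-2* to *aco-2* was 1.23, 1.27 and 1.20 in *daf-2* animals, against 1.55, 1.52 and 1.57 in WT animals. Both ratios were lower in every *daf-2* sample than in every WT sample, whatever the scaling.

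Tissue markers differed between these genotypes as well. Of the germline markers, 9 of 12 were lower and 2 were higher in *daf-2* animals, with the sums given above, while all 4 sperm markers were higher (sums of 81.0 to 87.9 CPM in *daf-2* and 30.9 to 39.98 CPM in WT animals). Of the hypodermis markers, 4 of 5 were lower and 1 was higher, with sums of 1072 to 1323 CPM in *daf-2* and 1569 to 1676 CPM in WT animals. Of the intestine markers, 2 of 5 were lower and 1 was higher, with sums of 259.8 to 355 CPM in *daf-2* and 432 to 474 CPM in WT animals. Of the neuron markers 2 of 5, and of the body wall muscle markers 1 of 5, were higher and 0 were lower. The part of these markers in the values of the cycle genes was not tested.

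Before aging, *glp-4* animals differed from WT animals in both directions. On day 1, 6 of the 9 genes were higher and 1 was lower in *glp-4* animals by edgeR, where 45.5% of all 15610 tested genes were higher and 40.0% were lower. Strain, the *eri-1* allele, germline and, by the methods of the study, larval temperature differ together in this comparison and cannot be told apart. The median log2 fold change was 0.71 over the 9 genes and 0.28 over all tested genes. That overall median ranged from -0.25 to 0.63 under other scalings, so each value is to be read beside it.

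*cts-1* and *ogdh-1* stood highest. *cts-1* had 1660.2 and 1842 CPM in *glp-4* animals, against 815, 819.9 and 847 CPM in WT animals (log2 fold change 1.08 ± 0.08, adjusted p = 1.3e-09, edgeR). *ogdh-1* had 956 and 1065 CPM in *glp-4* animals, against 457, 437 and 463 CPM in WT animals (1.16 ± 0.08, adjusted p = 1.7e-10, edgeR). *fum-1* (0.74 ± 0.07), *sucl-1* (0.71 ± 0.08) and *mdh-2* (0.43 ± 0.08) were called higher too, with no overlap between the groups. The call for *mdh-2* was lost with library totals alone (0.10, adjusted p = 0.17) and with limma on log2(TPM + 1) (0.04, adjusted p = 0.63).

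The isocitrate dehydrogenase subunits parted ways between these strains. *idhb-1* had 214 and 231 CPM in *glp-4* animals, against 110.3, 109 and 116 CPM in WT animals (log2 fold change 0.99 ± 0.08, adjusted p = 3.2e-09, edgeR). *idhg-1* had 87.9 and 93.2 CPM in *glp-4* animals, against 193, 198 and 192 CPM in WT animals (log2 fold change -1.10 ± 0.08, adjusted p = 4.2e-10, edgeR). *idha-1* had 243 and 274 CPM in *glp-4* animals, which overlapped the 248, 238 and 261 CPM of WT animals (0.06 ± 0.09, adjusted p = 0.55). *idhg-1* was the only member lower in *glp-4* animals by this test.

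*aco-2* (0.11 ± 0.08, adjusted p = 0.19, edgeR) and *idha-1* depended on the scaling even in sign. With library totals alone *aco-2* was called lower at -0.22 (adjusted p = 0.0019) and *idha-1* at -0.28 (adjusted p = 8.5e-04), while with upper-quartile normalization both were called higher, at 0.47 and 0.41. The calls for *cts-1*, *idhb-1*, *idhg-1*, *ogdh-1*, *sucl-1* and *fum-1* kept their direction and their side of the threshold in every scaling that was run.

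Ratios between subunits of 1 enzyme do not depend on scaling between samples. The ratio of *idhg-1* to *idhb-1* in TPM was 0.505 and 0.499 in *glp-4* animals on day 1, 0.318 and 0.379 on day 3, and 0.530 and 0.528 on day 7, while it lay between 2.03 and 2.12 in *daf-2* animals, against 1.97 to 2.15 in WT animals. All 6 *glp-4* samples thus lay below all samples of the other two genotypes, which overlapped. All 5 body wall muscle, all 5 intestine, 4 of 5 hypodermis and 3 of 5 neuron markers were higher, and all 12 germline markers, all 4 sperm markers and 1 hypodermis marker lower, in *glp-4* than in WT animals on day 1, and *gsp-3*, a sperm marker, was at 0 counts in both *glp-4* samples. Their part in these ratios was not tested.

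Succinate dehydrogenase and succinyl-CoA ligase also had subunit genes that differed in opposite directions between *glp-4* and WT animals. Of the 2 gamma subunit genes of isocitrate dehydrogenase, *idhg-1* was lower and *idhg-2* was not called (log2 fold change 0.15 ± 0.09, adjusted p = 0.14, edgeR). The ratio of *idhg-2* to *idhg-1* in TPM averaged 0.385, 0.531 and 0.184 in *glp-4* animals on day 1, 3 and 7. It averaged 0.232 in *daf-2* and 0.166 in WT animals. Succinate dehydrogenase has 2 genes for its flavoprotein subunit: *sdha-1* was higher in *glp-4* animals on day 1, with 378 and 412 CPM against 134, 137 and 146 CPM in WT animals (log2 fold change 1.51 ± 0.08, adjusted p = 4.5e-12, edgeR). *sdha-2* was lower, with 34.6 and 31.3 CPM in *glp-4* animals, against 177, 187 and 180.0 CPM in WT animals (-2.46 ± 0.12, adjusted p = 2.2e-12, edgeR). The 2 genes are paralogs, so reads of near-identical stretches may have been divided between them by the estimate of the counts.

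Succinyl-CoA ligase pairs an alpha subunit, encoded by *sucl-1* or *sucl-2*, with a beta subunit that sets the nucleotide it forms: *suca-1* encodes the ATP-forming and *sucg-1* the GTP-forming one. *sucl-2* was lower in *glp-4* animals (-1.22 ± 0.11), where *sucl-1* was higher (0.71 ± 0.08). *sucg-1* was lower (-1.79 ± 0.09) and *suca-1* higher (1.06 ± 0.08), each with an adjusted p of 9.8e-09 or less, *sucl-1* aside (4.5e-07, edgeR). *suca-1* was added and named after the lists of genes had been fixed.

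The ratio of *sdha-2* to *sdha-1* in TPM was 0.110 and 0.0912 in *glp-4* animals on day 1, against 1.58, 1.64 and 1.48 in WT animals, and it averaged 0.143 ± 0.0205 on day 7 (SD, n = 2). The ratio of *sucg-1* to *suca-1* was 0.0947 and 0.0844 in *glp-4* animals on day 1, against 0.662, 0.634 and 0.637 in WT animals, and averaged 0.146 ± 0.00674 on day 7. In *daf-2* animals the first ratio was 1.45, 1.35 and 1.36 and the second 0.598, 0.618 and 0.600, both lower in every sample than in WT animals, by far less than in *glp-4* animals.

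**Figure D4:**
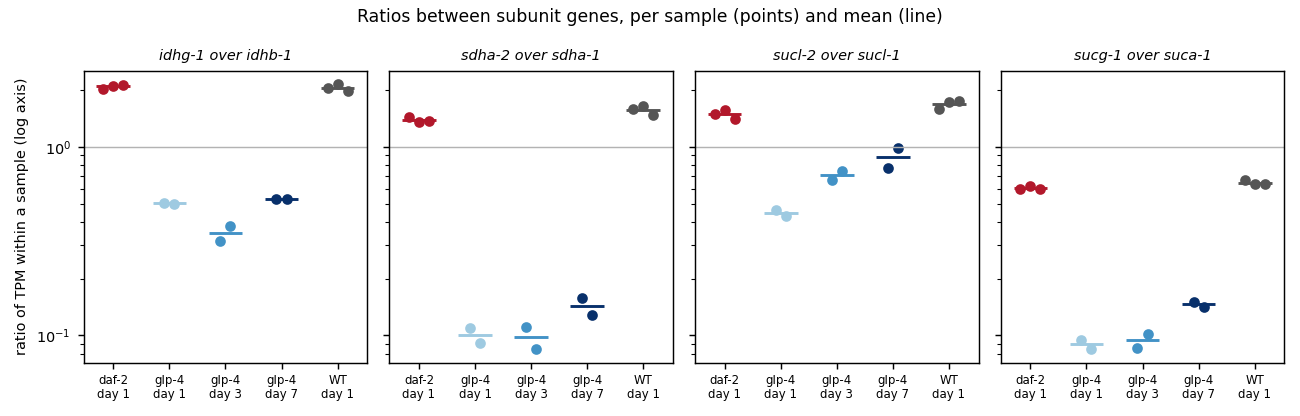
Ratio of the TPM of 2 genes within a sample (points) and its group mean (line), on a log axis, for *idhg-1* over *idhb-1*, *sdha-2* over *sdha-1*, *sucl-2* over *sucl-1* and *sucg-1* over *suca-1*. In all 4 panels every *glp-4* sample lies below every *daf-2* and WT sample, for example 0.318 to 0.530 for *idhg-1* over *idhb-1*, against 1.97 to 2.15 in WT animals.

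The other genes of the pathway were taken from 4 lists of 31 genes in all: 10 further subunits of the cycle enzymes, 4 cytosolic or NADP-dependent relatives, 8 genes for the entry of pyruvate and 9 for reactions that drain or refill the cycle. On day 7 against day 1 of *glp-4* animals, 27 of the 31 were lower and 3 were higher by edgeR, where 31.3% of all tested genes were lower and 30.6% were higher. All 10 further subunits, all 4 relatives and all 8 pyruvate genes were lower by edgeR, at both day 3 and day 7. The day 3 call for *idhg-2* (-0.46 ± 0.14, adjusted p = 0.014, edgeR) was lost with DESeq2 (adjusted p = 0.12) and with limma on log2(TPM + 1) (0.064). Among the subunits, *dlst-1* and *dld-1*, the other components of 2-oxoglutarate dehydrogenase, had log2 fold changes of -1.66 ± 0.11 and -1.97 ± 0.11 on day 7, and *sdha-1* one of -1.73 ± 0.11. Outside the lists and these counts, *suca-1*, added later, had one of -1.88 ± 0.11. *idhg-2*, a second gamma subunit gene of isocitrate dehydrogenase, fell mostly after day 3, to 7.72 and 7.37 CPM on day 7, against 33.1 and 32.5 CPM on day 1 (-2.09 ± 0.17, adjusted p = 9.6e-08, edgeR).

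The 3 largest declines in these lists belonged to *idh-1*, *mpc-1* and *aco-1*. *idh-1*, a cytosolic NADP-dependent isocitrate dehydrogenase, had 610.4 and 779 CPM on day 1, 98.4 and 102 on day 3, and 44.5 and 45.3 on day 7. That is 15.1-fold lower on day 7 (log2 fold change -3.92 ± 0.14, adjusted p = 1.7e-11, edgeR). *mpc-1*, a subunit of the mitochondrial pyruvate carrier, was 9.12-fold lower (-3.19 ± 0.19, adjusted p = 2.4e-09) and *aco-1*, the cytosolic aconitase, 7.201-fold lower (-2.85 ± 0.12, adjusted p = 7.0e-11). *mdh-1*, the cytosolic malate dehydrogenase, declined less than *mdh-2* (-1.56 ± 0.10), and the ratio of *mdh-1* to *mdh-2* in TPM was 0.871 and 0.970 on day 1, 2.14 and 2.27 on day 3, and 2.39 and 2.27 on day 7.

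The genes that drain or refill the cycle did not decline together. On day 3 against day 1, 5 of these 9 were higher and 3 were lower by edgeR, where 26.6% of all tested genes were higher and 27.5% were lower. Leaving out 1 sample at a time gave 6 to 9 called genes, and without replicate 1 of day 3 only 3 were higher and 3 lower. *pck-1*, a phosphoenolpyruvate carboxykinase that leads oxaloacetate towards glucose, had 139 and 175 CPM on day 1, 769 and 699 on day 3, and 272 and 287 on day 7. Its log2 fold change was 2.25 ± 0.12 on day 3 (adjusted p = 2.0e-09) and 0.86 ± 0.12 on day 7 (adjusted p = 2.4e-05, both edgeR). *acly-2*, an ATP-citrate lyase, had 22.7 and 24.1 CPM on day 1, 123 and 106 on day 3, and 76.6 and 85.7 on day 7, and *got-2.1*, an aspartate aminotransferase, was the third gene higher on day 7 (1.75 ± 0.32, adjusted p = 2.9e-04, edgeR), at a low level of 7.53 and 7.21 CPM against 1.98 and 2.46 CPM on day 1. Its call on day 3 (1.14, adjusted p = 0.0094, edgeR) was lost with DESeq2 (adjusted p = 0.074), and without replicate 1 of day 3 its value was 1.04. On day 1, *acly-2* (log2 fold change -3.74) and *got-2.1* (-5.47) were far lower in *glp-4* than in WT animals, and *pck-1* was slightly lower (-0.26). Germline markers rose over the same ages, and their part in the rise of these genes was not tested.

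In *daf-2* against WT animals 19 of the 31 genes were lower and 7 were higher by edgeR, where 22.5% of all tested genes were lower and 25.5% were higher, so that the count of higher genes was close to the background. Of the 9 genes that drain or refill the cycle, 4 were higher and 5 were lower. *pck-1* had 568, 537 and 535 CPM in *daf-2* animals, against 192, 189 and 185 CPM in WT animals (log2 fold change 1.56 ± 0.04, adjusted p = 7.0e-10, edgeR). *icl-1*, which carries both glyoxylate cycle activities that bypass the decarboxylation steps, had 758, 767 and 858 CPM in *daf-2* animals, against 270.2, 276 and 228 CPM in WT animals (1.64 ± 0.08, adjusted p = 8.5e-08, edgeR). *pck-2* (0.80 ± 0.04), *pyc-1*, pyruvate carboxylase, which refills oxaloacetate (0.49 ± 0.05), *idhg-2* (0.41 ± 0.07), *mdh-1* (0.19 ± 0.05) and *got-2.2*, an aspartate aminotransferase (0.19 ± 0.04), were higher as well. The calls for *mdh-1* and *got-2.2* were lost in a model of all 12 samples (both 0.17, with adjusted p of 0.067 for *mdh-1* and 0.054 for *got-2.2*).

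The cytosolic and mitochondrial malate dehydrogenase genes can be compared within a sample. The ratio of *mdh-1* to *mdh-2* in TPM was 1.27, 1.24 and 1.24 in *daf-2* animals, against 0.828, 0.864 and 0.845 in WT animals, with no overlap. *acly-1* (-0.52 ± 0.06, adjusted p = 5.0e-05), *aco-1* (-0.41 ± 0.05, adjusted p = 6.0e-05) and *dld-1* (-0.35 ± 0.05, adjusted p = 1.1e-04, all edgeR) were among the lower genes. With library totals alone, fewer of these lists' genes were lower in *daf-2* animals: 3 of 10 subunits, where TMM gave 5, and 3 of 8 pyruvate genes, where TMM gave 6.

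Of the same 31 genes, on day 1 in *glp-4* against WT animals, 21 were higher and 9 were lower by edgeR, where 45.5% of all tested genes were higher and 40.0% were lower, and the split depended on the scaling. Of the 10 further subunits, 6 were higher and 3 lower, and with library totals alone 2 were higher and 3 lower. All 4 relatives were higher, *aco-1* most (1.62 ± 0.08, adjusted p = 5.2e-12), and with library totals alone 3 were. *icl-1* had 2376 and 2235 CPM in *glp-4* animals, against 270.2, 276 and 228 CPM in WT animals (3.16 ± 0.10, adjusted p = 7.4e-15, edgeR). *got-2.1* (-5.47 ± 0.13) and *acly-2* (-3.74 ± 0.10) were lowest, at 1.98 and 2.46 CPM and at 22.7 and 24.1 CPM in *glp-4* animals, against 97.4 to 102 CPM and 310.3 to 316 CPM in WT animals.

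Over the 5 groups, the mean pattern of the 9 genes was compared with that of every gene with a mean of at least 10 CPM, as the root mean square difference of centred log2 group means. *fum-1* (0.12), *idha-1* (0.14) and *sucl-1* (0.15) stood closest to the mean pattern of the members, and *idhg-1* farthest (0.67). The closest pair was *sucl-1* and *fum-1*, at 0.11, and the farthest was *idhb-1* and *idhg-1*, 2 subunits of the same enzyme, at 1.12. Among the genes outside the 9, the nearest patterns belonged to *tsp-8* (0.06), a tetraspanin gene, *mai-2* (0.06), an inhibitor of the mitochondrial ATP synthase, *dlst-1* (0.06), the E2 component of 2-oxoglutarate dehydrogenase, *nduf-6* (0.07), a subunit of respiratory complex I, and *tag-335* (0.09). *tsp-8*, with a mean of 10.5 CPM, stood just above the cut, while the others named had means of 53.8 to 253 CPM. These distances describe 5 group means and carry no test.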

How the data were processed

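The authors sequenced mRNA with TruSeq RNA v2 libraries (50-base single-end reads) and processed it with the Cactus pipeline. They deposited raw estimated counts for each gene as whole numbers, and TPM values, which are relative to transcript length and to the total of each sample. The submitters' processing notes name kallisto and edgeR and the builds ce11 and WBcel235, and versions are not given in the sources used here. The counts are estimates: 305 cells hold a count of 0 beside a TPM above 0. Every column mapped to 1 sample by its label (0 not mapped).

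The estimated counts were tested with edgeR 4.0.16 in R 4.3.3: filterByExpr (minimum count 10, minimum total count 15), TMM factors, quasi-likelihood test, Benjamini-Hochberg adjustment over all tested genes, called at an adjusted p under 0.05. *daf-2* and WT samples formed 1 model, the *glp-4* ages another, and all 12 samples a model for *glp-4* against WT. The SE of a log2 fold change was derived as its absolute value divided by the square root of the test's F statistic. CPM levels used TMM factors of all 12 samples, so their ratios differ slightly from the fitted fold changes. Across the 9 pairs of samples of 1 group, the chi-square of their counts was 2.25 to 18.8 per degree of freedom, above sampling noise, so none was counted as a copy. A floor of 3 counts corresponds to 0.133 to 0.661 CPM and covers counting error only. The steps were tested on simulated data.

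The 9 genes and the lists were chosen with earlier results of these data known. By the rule for named genes all 9 members are described, other genes come from the lists, and the 5 nearest patterns are named. The list genes printed with values were picked with those values in view. Alternatives were DESeq2 size factors, library totals, upper-quartile normalization, DESeq2 1.42.0, limma 3.58.1 on log2(TPM + 1) or log2(TPM + 0.1) with and without a minimum mean TPM of 1, other filters, other samples in the model, the replicate number as a block, each sample left out, and stricter thresholds. Tables were joined with pandas 2.3.3 and drawn with matplotlib 3.10.9. Promoter and protein sequences were not analysed here.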

Additional observations from a re-analysis of the deposited data

How the results depend on the processing

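The 9 genes kept their direction on day 3 and day 7 against day 1 of *glp-4* animals under every alternative. Leaving out 1 sample at a time gave 8 to 9 genes called on day 3, 9 on day 7, 4 to 6 on day 7 against day 3, 3 to 5 in *daf-2* animals (5 without *daf-2* replicate 1) and 7 in *glp-4* against WT animals. Where this left an age with 1 sample, that sample was assumed to vary like the other groups. A minimum absolute log2 fold change of 1 left 4, 8, 0, 0 and 3 genes in the same order. The replicate block left the counts at 9, 9, 6, 3 and 7 and changed no count of these genes. Same-numbered samples did not deviate together (correlations of deviations from group means -0.0238 to 0.0198), which gave no sign of pairing but cannot exclude it. With 2 samples per *glp-4* age the deviations mirror each other, so between ages same-numbered and other pairs differ only in sign. On day 7 against day 3, limma on TPM called 3 genes (1 higher, 2 lower) in all 3 settings. With library totals alone the median of the 9 genes there was 0.088, *aco-2* 0.35, *idhg-1* 0.42, *idha-1* 0.088 and *ogdh-1* 0.089, *idhg-1* was 0.036 with upper-quartile normalization, and limma on TPM gave 0.20 for *aco-2* and 0.25 to 0.26 for *idhg-1*. Without replicate 1 of day 7, *cts-1* was -0.0068 (range without each sample -0.0068 to 0.18). In *daf-2* against WT animals, library totals alone and then limma on TPM gave a median of the 9 genes of 0.034 and 0.034 to 0.035, 0.075 and 0.078 for *aco-2*, 0.090 and 0.093 to 0.094 for *fum-1*, 0.034 and 0.034 to 0.035 for *sucl-1*, 0.027 and 0.030 for *idhb-1*, 0.049 and 0.051 for *idhg-1*, and 0.038 and 0.052 for *ogdh-1*. In *glp-4* against WT animals, *aco-2* was -0.14 with DESeq2 size factors, -0.22 with library totals alone, -0.14 with DESeq2, -0.36 with limma on TPM and -0.10 in a model of only the compared samples. *idha-1* was -0.20, -0.28, -0.20, -0.34 and -0.16 under these settings, -0.023 without a filter on low counts, and -0.051 without replicate 2 of *glp-4* day 1 (range without each sample -0.051 to 0.14). *pdha-1*, called lower in *daf-2* animals, was 0.0085 with library totals alone and 0.025 with limma on TPM. The cause of these changes was not tested. Library totals alone made 71.8% of all called genes higher in *daf-2* animals (53.2% with TMM), 71.6% on day 7 against day 1 (49.4%) and 84.4% on day 7 against day 3 (43.5%), and limma on log2(TPM + 1) gave 72.3%, 68.6% and 75.5%. Upper-quartile normalization gave 55.9% on day 7 against day 3. The day 7 samples, with the lowest totals, have the highest floor, and no member came near it.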

Other observations

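The smaller subunits of succinate dehydrogenase, the enzyme that links the cycle to the respiratory chain, declined with age in *glp-4* animals. *mev-1*, the cytochrome b subunit, had 161 and 143 CPM on day 1, 78.7 and 78.7 on day 3, and 51.3 and 46.1 on day 7 (log2 fold change on day 7 against day 1 -1.61 ± 0.12, adjusted p = 2.8e-08, edgeR). *sdhb-1*, the iron-sulfur subunit (-1.55 ± 0.10), and *sdhd-1*, the other membrane anchor (-1.56 ± 0.12), were also lower, and none of the 3 genes had samples of day 7 and day 1 that overlapped.

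Genes of the pyruvate dehydrogenase complex, which makes the acetyl-CoA that citrate synthase uses, were lower on day 7 than on day 1 too. *pdhb-1*, the E1 beta subunit, had 266 and 252 CPM on day 1, 70.6 and 71.8 on day 3, and 41.2 and 43.4 on day 7 (-2.58 ± 0.11, 5.98-fold lower, adjusted p = 1.3e-10, edgeR). *pdha-1*, the E1 alpha subunit, was 2.38-fold lower (-1.25 ± 0.11) and *dlat-1*, the E2 component, 3.85-fold lower (-1.95 ± 0.11). In *daf-2* animals *pdhb-1* had 158, 146 and 139 CPM, against 199.9, 199 and 200.4 CPM in WT animals (-0.42 ± 0.04, adjusted p = 2.8e-05, edgeR). *dlat-1* was lower as well (-0.31 ± 0.05, adjusted p = 2.4e-04), while the call for *pdha-1* (-0.11 ± 0.04, adjusted p = 0.032) was lost with library totals alone, where the value turned positive (0.0085), and without *daf-2* replicate 2 or 3 or any 1 of the 3 WT replicates (adjusted p from 0.055 to 0.13).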
